A study of Mus musculus with 8 samples.

Results

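The miR-30 family was examined in small RNA libraries of Kupffer cells, macrophages that reside in mouse liver. Its members were taken by name from the deposited table: every entry named mmu-miR-30a, mmu-miR-30b, mmu-miR-30c, mmu-miR-30d or mmu-miR-30e, with any arm, locus number or suffix (the prefix and suffixes are dropped from here on). This gave 11 of 1234 entries, 5 of the 5p arm and 6 of the 3p arm, and all 11 passed the filter on low counts. The 8 libraries came from male mice, 4 wild-type (WT, animals 35, 37, 80 and 82, whose genotype is labelled control) and 4 Trem2 knockout (Trem2-/-, here KO, animals 40, 46, 88 and 90). All 8 received a high-fat diet for 8 weeks, starting when they were 8 weeks old, and WT and KO mice were littermates. Trem2 encodes a lipid-sensing receptor of macrophages. Small RNA libraries do not measure its messenger RNA, so the knockout could not be checked here. Kupffer cells were sorted by flow cytometry. Neither the sorting markers nor how the Trem2 allele was made is stated in the labels, and no group was fed a normal diet.

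A microRNA precursor folds into a hairpin from which a 5p and a 3p strand are cut. Usually 1 strand is kept in the Argonaute complex, where its bases 2 to 8, the seed, pair with messenger RNAs and lower their output. In the miR-30 family the 5p strand is the one mostly kept. The family is known for repressing Snai1 and Ctgf, which act in mesenchymal transition and fibrosis, and the Notch ligand Dll4. Single members have further known roles: miR-30a represses the autophagy gene Beclin 1, miR-30c lowers the microsomal triglyceride transfer protein in mouse liver, and miR-30b inhibits phagocytosis in human macrophages.

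The 5p sequences are shown as the table lists them because the results turn on which of them dominate. Capitals mark the seed.
miR-30a-5p: tGTAAACAtcctcgactggaagct
miR-30d-5p: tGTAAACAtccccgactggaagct
miR-30e-5p: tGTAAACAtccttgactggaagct
miR-30b-5p: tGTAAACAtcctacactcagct
miR-30c-5p: tGTAAACAtcctacactctcagct
All 5 share their first 11 bases, seed included, and differ after that. Counting from 1 at the 5′ end, miR-30a-5p differs from miR-30d-5p by T12C and from miR-30e-5p by C13T. miR-30b-5p and miR-30c-5p share their first 18 bases, and miR-30a-5p and miR-30c-5p differ at 5 positions. The family therefore splits by sequence into miR-30a, miR-30d and miR-30e on 1 side and miR-30b and miR-30c on the other.

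The 3p sequences carry other seeds, again in capitals.
miR-30a-3p: cTTTCAGTcggatgtttgcagt
miR-30d-3p: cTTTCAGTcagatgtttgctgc
miR-30e-3p: cTTTCAGTcggatgtttacagt
miR-30c-1-3p: cTGGGAGAgggttgtttactct
miR-30c-2-3p: cTGGGAGAaggctgtttactct
miR-30b-3p: cTGGGATGtggatgtttacgtc
They fall into 3 seed groups along the same division: miR-30a, miR-30d and miR-30e share 1 seed, both miR-30c loci share another, and miR-30b-3p has its own. RefSeq held mature sequences (build GRCm38.p6) for 7 of the 11 arms and none for the other 4, those of miR-30b and miR-30d. The listed miR-30a-5p and miR-30e-5p were 2 bases longer than the RefSeq form and miR-30c-5p was 1 base longer, all at the 3′ end. The listed miR-30a-3p, miR-30c-1-3p and miR-30e-3p each differed from RefSeq by C22T, at the last base. The 2-base and 1-base extensions and this substitution leave the seeds as in RefSeq.

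Mature miR-30c-5p comes from 2 precursors, and only the 3p arms tell them apart. Both RefSeq hairpins are shown, with the mature arms in capitals.
Mir30c-1: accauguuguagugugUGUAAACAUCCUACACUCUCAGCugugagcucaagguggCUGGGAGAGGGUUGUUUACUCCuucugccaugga
Mir30c-2: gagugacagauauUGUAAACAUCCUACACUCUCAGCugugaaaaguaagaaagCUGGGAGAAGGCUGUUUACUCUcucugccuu
The precursors form 3 pairs in GRCm38, separated by 19361 bases (Mir30a and Mir30c-2), 2983 bases (Mir30c-1 and Mir30e) and 3697 bases (Mir30b and Mir30d). GENCODE M21 gives the genes they overlap. Mir30a lies at chr1:23272269-23272339 on the plus strand, overlapping no other annotated gene. Mir30c-2 follows it on the same strand at chr1:23291701-23291784, in an exon of the long noncoding RNA Gm27028. Mir30c-1 (chr4:120769534-120769622) and Mir30e (chr4:120772606-120772697) lie on the minus strand in introns of Nfyc, which encodes a subunit of the transcription factor NF-Y, and Mir30f is annotated opposite Mir30e. Mir30b (chr15:68337415-68337510) and Mir30d (chr15:68341208-68341289) lie on the minus strand in exons of the noncoding transcripts Gm26621 and Gm20732. Each pair thus joins 1 member of the miR-30b and miR-30c side with 1 of the other side.

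Total expected counts ran from 2129942 to 9443992 per library. The family took 7.91% of them in WT 37 (Wilson 95% interval 7.88 to 7.95) and 12.2% in WT 80, with the other libraries in between. Macrophage and myeloid miRNAs (miR-142a, miR-223, miR-511 and miR-146a) were present in every library, with summed levels of 69224 to 131934 CPM in WT and 103213 to 124643 CPM in KO. Hepatocyte-enriched miRNAs were also present in every library, and miR-122-5p, the defining hepatocyte miRNA, stood between 5444 and 115597 CPM, highest in WT 37. Levels are CPM (counts per 1000000) scaled by TMM factors, which correct for a few abundant entries taking a changing share of the reads. A read covers a whole mature miRNA, so no length enters, but reads of different sequences are recovered with unequal efficiency and levels between arms compare reads, not molecules.

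The most abundant member was miR-30d-5p, at place 3 of the 627 entries tested by mean level. Its level was 50603, 40764, 75308 and 48000.3 CPM in WT 35, 37, 80 and 82. In KO 40, 46, 88 and 90 it was 55132, 49874, 37622 and 56059 CPM. WT 80 was the highest library and KO 88 the lowest, and the genotypes overlapped. It exceeded miR-30a-5p in 8 of 8 libraries, by a mean log2 ratio of 1.62 ± 0.43 (SD over 8 libraries).

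Below it, 4 5p arms followed whose order was not fixed. The level of miR-30a-5p was 20130.3, 21580.5, 18258 and 10761 CPM in WT 35, 37, 80 and 82 and 23769, 15743, 10579.6 and 16114 CPM in KO 40, 46, 88 and 90. That of miR-30b-5p was 15569.5, 11117.5, 19995.5 and 15919.6 CPM in the same WT libraries and 15489.9, 10586, 19154 and 23640.3 CPM in the KO libraries. These neighbours did not differ beyond their spread: miR-30a-5p was the higher in 4 of 8 libraries (mean log2 ratio 0.05 ± 0.67, SD). The level of miR-30e-5p was 13133, 12365.5, 12299.8 and 5949.9 CPM in WT and 13776, 10383, 5516 and 9149.6 CPM in KO, in the same order of libraries. The lowest 5p arm by its mean was miR-30c-5p, at 3851, 3703, 14255 and 7153 CPM in WT 35, 37, 80 and 82 and 4053, 2539, 8021 and 12264 CPM in KO 40, 46, 88 and 90. Its highest library held 5.61 times its lowest, the widest span among the 5p arms. In libraries of animals 35 to 46 miR-30c-5p was the last of the 5p arms, and in those of animals 80 to 90 it stood above miR-30e-5p.

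**Figure D1:**
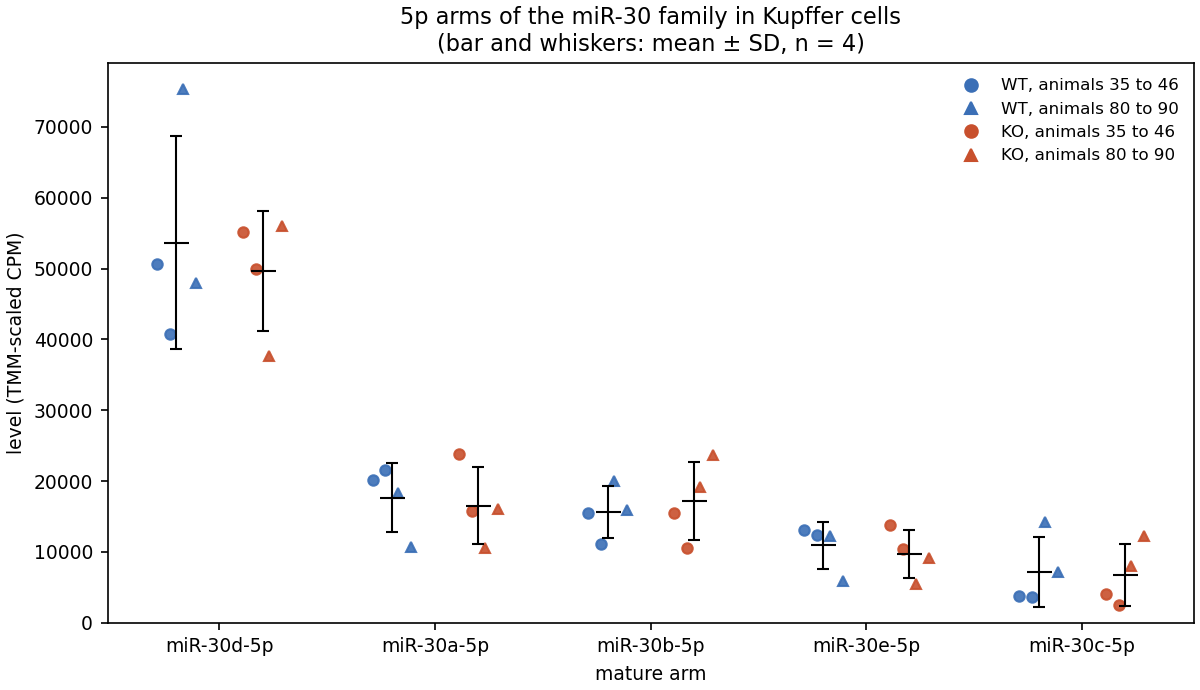
Level of each 5p arm in TMM-scaled CPM by library, with wild type in blue and knockout in red, circles for animals 35 to 46 and triangles for animals 80 to 90; bars and whiskers are the mean and SD over 4 libraries. The genotypes overlap for all 5 arms, while for miR-30c-5p the circles lie at 2539 to 4053 CPM and the triangles at 7153 to 14255 CPM.

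The 3p arms were far lower, and together made up 1.04% to 1.90% of the family's reads. The level of miR-30a-3p was 611 ± 122 CPM in WT and 677 ± 75.9 CPM in KO (SD, n = 4 each). That of miR-30e-3p was 319 ± 67.5 and 342 ± 54.0 CPM. Across libraries the ratio of these arms was steady: miR-30e-3p had 0.439 to 0.583 reads for each read of miR-30a-3p. The genes lie on different chromosomes, but the listed sequences are nearly identical. The part of reads divided between these arms in this ratio was not tested. Then came miR-30c-2-3p, at 231, 329, 143 and 116 CPM in WT 35, 37, 80 and 82 and 332, 196, 127 and 106 CPM in KO 40, 46, 88 and 90. The level of miR-30d-3p was 167, 156, 132 and 62.7 CPM in WT and 231, 204, 110 and 113 CPM in KO, in the same order. For both arms the libraries of animals 80 to 90 were the low ones in each genotype. The means of miR-30b-3p (147 ± 30.0 CPM in WT, 141 ± 59.0 CPM in KO) and miR-30d-3p did not differ beyond their spread, with miR-30d-3p the higher in 4 of 8 libraries. The lowest was miR-30c-1-3p, at 33.2 ± 7.88 CPM in WT and 46.7 ± 21.4 CPM in KO, with 94 to 208 counts per library. Of the reads that identify a miR-30c locus, 11.2% to 25.3% were miR-30c-1-3p, so reads from the Mir30c-2 3p arm outnumbered those from Mir30c-1 in every library.

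**Figure D2:**
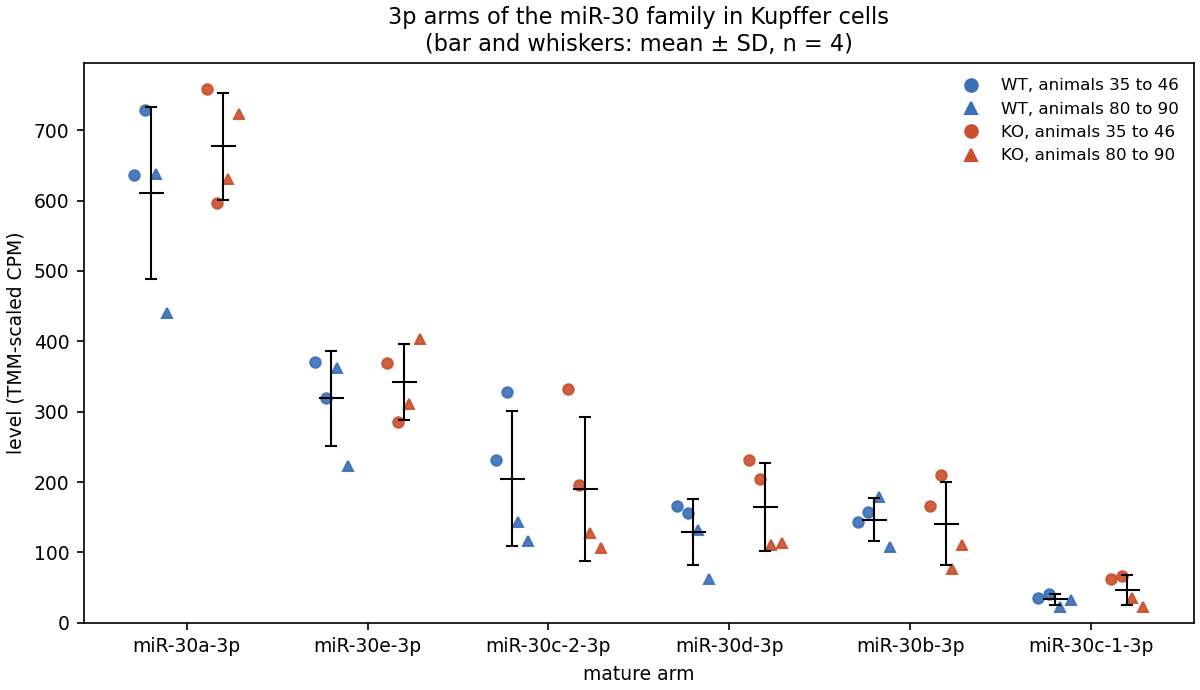
Level of each 3p arm in TMM-scaled CPM by library, with symbols, bars and whiskers as for the 5p arms (mean and SD, n = 4). The levels run from 22.3 CPM for miR-30c-1-3p in KO 90 to 758 CPM for miR-30a-3p in KO 40, and the genotypes overlap for all 6 arms.

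The first comparison set KO against WT libraries. No member was called higher or lower between the genotypes. With 4 libraries each this does not exclude a change. The edgeR interval of the log2 difference ran from -1.39 to 1.18 for miR-30c-5p and from -0.54 to 1.52 for miR-30c-1-3p. Of 11 entries, 5 were higher and 6 lower in KO libraries, with a median log2 difference (KO minus WT) of -0.06, beside -0.04 over all 627 entries tested. None passed an adjusted p of 0.05 in edgeR's quasi-likelihood test, where the background was 0% of entries. None of the 11 had an unadjusted p under 0.05, against 2 of all 627 entries. DESeq2 and limma also called 0 entries. An unadjusted p below 0.05 was found for 22 of 1234 entries in DESeq2, run without the count filter, and for 3 of 627 in limma. For all 11 the libraries of the genotypes overlapped, beside 0.797% of all entries that did not.

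Among the 5p arms, which carry the family's seed, the log2 differences were small against their standard errors (SE). The abundant miR-30d-5p was 53669 ± 15015 CPM in WT and 49672 ± 8482 CPM in KO (SD, n = 4 each). On the log2 scale this was -0.11 ± 0.28 (SE), with a 95% interval from -0.73 to 0.51. The autophagy-linked miR-30a-5p differed by -0.10 ± 0.33 and miR-30e-5p by -0.17 ± 0.36. The phagocytosis-linked miR-30b-5p differed by 0.14 ± 0.32. For miR-30c-5p, the member tied to lipoprotein assembly, the difference was -0.11 ± 0.58 with an interval of -1.39 to 1.18. With the number range of the animals, 35 to 46 or 80 to 90, as a second term it was -0.14 ± 0.27, with an interval of -0.74 to 0.46, and again 0 of the 11 members passed (lowest edgeR adjusted p 0.946). With genotype as the only term, all 5 of these 5p arms had an edgeR adjusted p of 0.997. The summed 5p arms were 105179 ± 24301 CPM in WT and 99866 ± 17600.5 CPM in KO.

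Of the 3p arms, miR-30c-1-3p had the largest difference of the family, 0.49 ± 0.46 (SE), and miR-30d-3p followed with 0.35 ± 0.43. Their edgeR adjusted p was 0.997 as well. The differences were 0.15 for miR-30a-3p, 0.10 for miR-30e-3p, -0.06 for miR-30b-3p and -0.10 for miR-30c-2-3p. Leaving out single libraries turned the sign of 8 of the 11 members (all but miR-30a-3p, miR-30c-1-3p and miR-30d-3p). Of 10 tested hepatocyte miRNAs 0 were higher in KO, with a median of -0.81 and 0 called. Their summed level was 139590 CPM in WT 37, 10644 to 15024 CPM in the other WT libraries and 9673 to 41171 CPM in KO, so without WT 37 the WT values lay inside the KO range. The part of hepatocyte RNA in the members' values was not tested. In bulk libraries fewer cells of a type and less RNA per cell cannot be told apart.

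The animal numbers fall into 2 ranges, 35 to 46 and 80 to 90, each with 2 WT and 2 KO mice, and the genotype difference was also taken within each. In animals 35 to 46 the log2 differences of the 5p arms ran from -0.14 for miR-30c-5p to 0.26 for miR-30d-5p. In animals 80 to 90 they ran from -0.38 for miR-30d-5p to 0.27 for miR-30b-5p. The 3p arms ran from -0.02 for miR-30c-2-3p to 0.79 for miR-30c-1-3p in animals 35 to 46. In animals 80 to 90 they ran from -0.59 for miR-30b-3p to 0.35 for miR-30a-3p. The interval of miR-30c-1-3p in animals 35 to 46 was 0.016 to 1.57 (edgeR adjusted p 0.988). No member passed in either range. The interaction of genotype with range passed for 0 of the 11 (lowest edgeR adjusted p 0.930, for miR-30b-3p, and 0% of all entries).

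The second comparison took the number ranges themselves, with genotype as a second term. The labels do not say what the ranges stand for, so litter, date and handling cannot be told apart from them. In libraries of animals 80 to 90, miR-30c-5p rose and miR-30c-2-3p fell, and miR-30d-3p was also called lower, though in few of the fits without 1 library. These 3 of 11 members are 27.3%, beside 32.4% of all 627 entries called, so being called at all was about as common in the family as elsewhere. By direction, 1 of 11 was called higher (16.6% of all entries) and 2 lower (15.8%). The median log2 difference (80 to 90 minus 35 to 46) was -0.53 over the family and -0.04 over all entries.

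The mean of miR-30c-5p was 3537 ± 680.4 CPM in animals 35 to 46 and 10423 ± 3393 CPM in animals 80 to 90 (SD, n = 4 each), 2.95 times as high. Its log2 difference was 1.56 ± 0.27 (SE; 95% interval 0.95 to 2.18; edgeR adjusted p 0.00242). Every library of animals 80 to 90 lay above every library of animals 35 to 46. The same separation held for miR-30b-5p, 13191 ± 2709.7 against 19678 ± 3173 CPM, which is 2 of 11 members beside 21.4% of all entries. Its log2 difference of 0.57 ± 0.22 did not pass (edgeR adjusted p 0.0671, 0.0231 to 0.0756 over 9 alternatives).

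The other side of the family had the opposite sign for its less abundant 5p arms. The differences of miR-30a-5p (-0.54 ± 0.24) and miR-30e-5p (-0.60 ± 0.27) did not pass, with an edgeR adjusted p of 0.110 and 0.111, and their ranges overlapped. For miR-30d-5p the difference was 0.13 ± 0.24. The 3p arms of miR-30a (-0.17 ± 0.21) and miR-30e (-0.06 ± 0.24) did not pass either, and the sign for miR-30e-3p flipped under 5 of 9 alternatives.

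Among the 3p arms, miR-30c-2-3p fell from 272 ± 68.9 to 123 ± 15.6 CPM (log2 difference -1.14 ± 0.25 (SE), edgeR adjusted p 0.00691). Without WT 37 its adjusted p was 0.0513 and the log2 difference -0.99. The call of miR-30d-3p, from 189 ± 34.5 to 104 ± 29.4 CPM (-0.85 ± 0.27, edgeR adjusted p 0.0355), was less firm, since it held in 5 of 9 alternatives (adjusted p 0.0313 to 0.139) and in 1 of 8 fits with 1 library left out (0.00760 to 0.145). The low miR-30c-1-3p had a log2 difference of -0.83 ± 0.32 (edgeR adjusted p 0.0736) and miR-30b-3p one of -0.53 ± 0.30 (0.187). For miR-30c-1-3p, miR-30c-2-3p and miR-30d-3p the ranges did not overlap, 3 of 11 members beside 19.8% of all entries lower in animals 80 to 90. Scaling by library totals moved the median of all entries from -0.04 to 0.16. Relative to that median miR-30c-5p stood at 1.60 with TMM factors and 1.53 with library totals, and miR-30c-2-3p at -1.10 and -1.11.

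**Figure D3:**
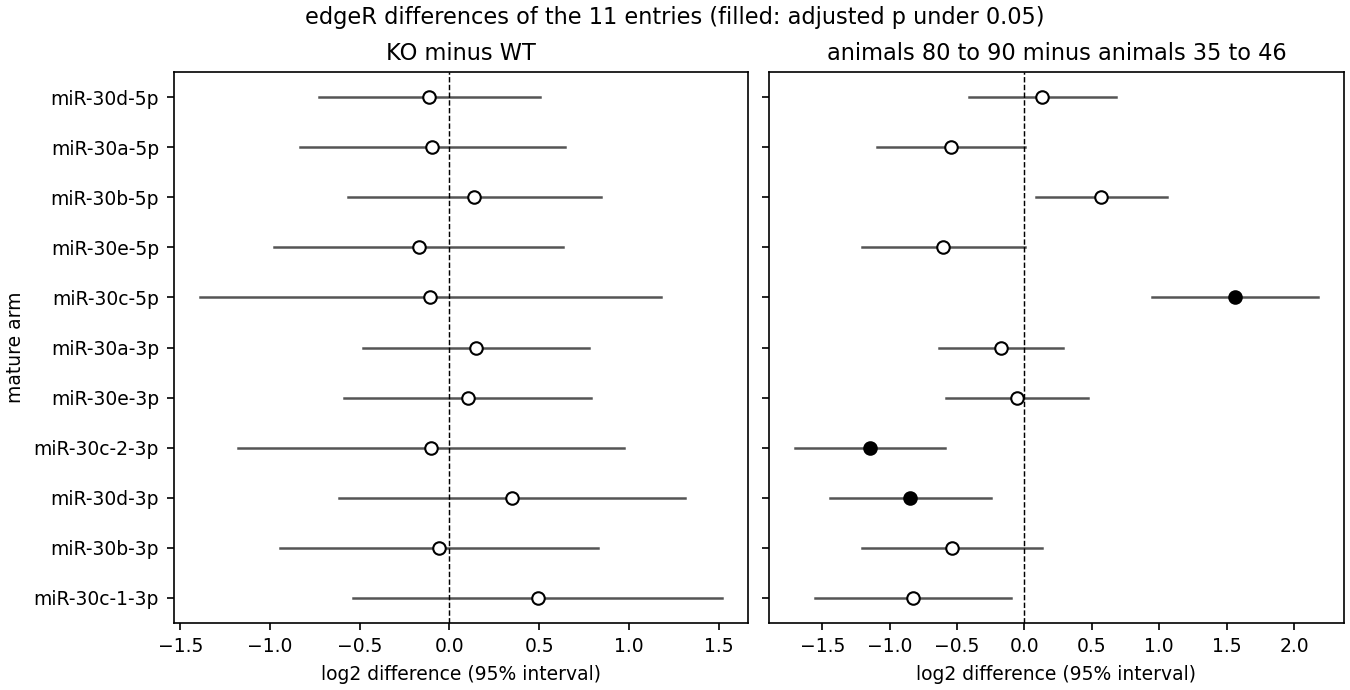
edgeR log2 differences of the 11 entries with 95% intervals, for KO minus WT on the left and for animals 80 to 90 minus animals 35 to 46 on the right; filled points have an adjusted p under 0.05. All 11 genotype intervals include 0, and on the right miR-30c-5p (1.56), miR-30c-2-3p (-1.14) and miR-30d-3p (-0.85) are filled.

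Shares within the family do not depend on how libraries are scaled, and several separated the number ranges. Because the shares are parts of the same total, a rise in any of them lowers the others together. How often shares or ratios within other families separate the ranges was not examined. By level, 21.4% of all entries lay higher without overlap in animals 80 to 90 and 19.8% lower. In animals 35 to 46, miR-30c-5p made up 3.73% and 4.14% of the 5p reads in WT 35 and 37 and 3.61% and 2.85% in KO 40 and 46. In animals 80 to 90 it made up 10.2% and 8.15% in WT 80 and 82 and 9.92% and 10.5% in KO 88 and 90. The ranges lay far apart and both genotypes stood on the same side in each. The share of miR-30a-5p went the other way, 17.7% to 24.1% against 12.3% to 13.7%, as did that of miR-30e-5p, 11.6% to 13.8% against 6.78% to 8.78%. The share of miR-30d-5p was nearly level, 49.9% ± 4.37 against 50.7% ± 4.12 (SD, n = 4 each). Together miR-30b-5p and miR-30c-5p made up 14.7% to 18.8% in animals 35 to 46 and 24.4% to 33.6% in animals 80 to 90.

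Ratios of miR-30c-5p, which both its loci produce, to the 5p arm of either neighbour also separated the ranges. For each read of miR-30a-5p there were 0.161 to 0.191 reads of miR-30c-5p in animals 35 to 46 and 0.665 to 0.781 in animals 80 to 90. For each read of miR-30e-5p there were 0.245 to 0.299 and 1.16 to 1.45. By contrast miR-30e-5p kept 0.521 to 0.674 reads per miR-30a-5p read over all 8 libraries, with overlapping ranges. The part of reads divided between these near-identical arms was not tested. Between genotypes the mean shares differed by 2.41 percentage points or less for each of the 5 arms, and no share separated WT from KO.

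**Figure D4:**
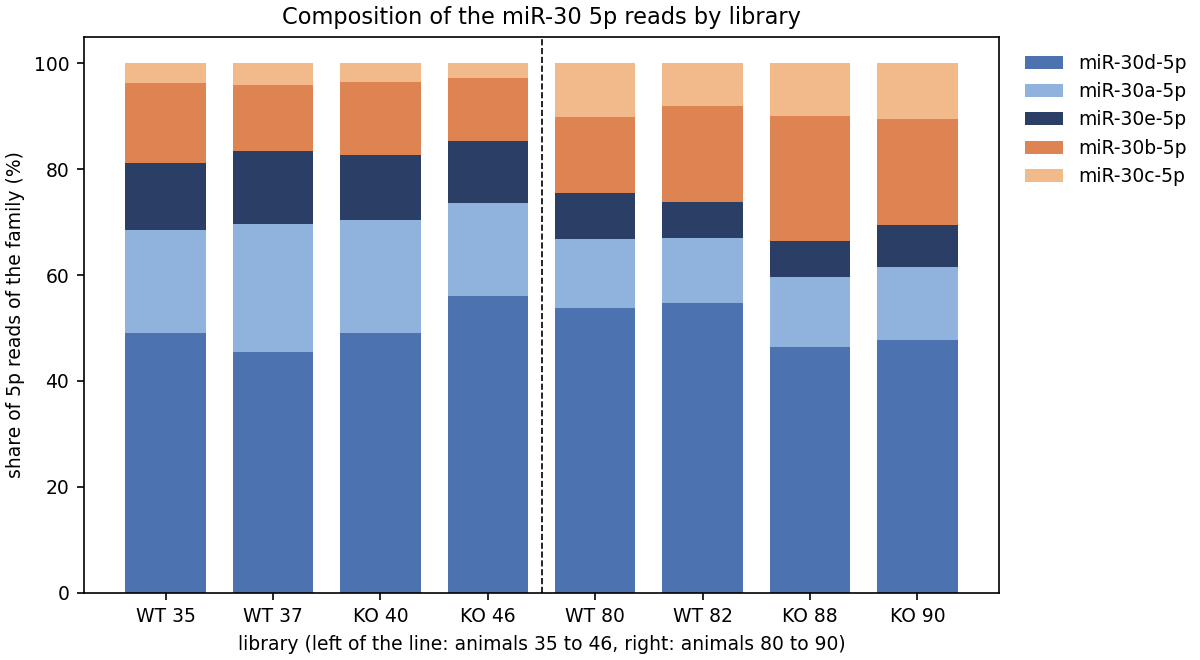
Share of the family's 5p reads, in percent, taken by each arm in each library, with animals 35 to 46 left of the dashed line and animals 80 to 90 right of it; blue shades are miR-30d, miR-30a and miR-30e and orange shades are miR-30b and miR-30c. The orange part is 14.7% to 18.8% on the left and 24.4% to 33.6% on the right, in WT and KO libraries alike.

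The ratio of 5p to 3p reads separated the number ranges for 4 of the 5 members. How often the arm ratios of other miRNAs do so was not examined. By level, 21.4% of all entries were higher without overlap in animals 80 to 90 and 19.8% lower. For miR-30c, whose 2 hairpins are summed here, there were 9.67 to 14.4 reads of the 5p strand per read of both 3p strands in animals 35 to 46. In WT 80, 82 and KO 88, 90 there were 86.1, 48.1 and 49.4, 95.4, a mean ratio 6.28 times as high. The ranges were separated for miR-30b as well (50.4 to 109 against 112 to 248) and for miR-30d (239 to 304 against 342 to 765). The ratio of miR-30e moved in the opposite direction, 35.4 to 38.7 against 17.8 to 34.0, and that of miR-30a overlapped, 26.4 to 31.6 against 16.8 to 28.6. Between genotypes no arm ratio was separated. These ratios are descriptions taken after the levels were known and were not tested.

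**Figure D5:**
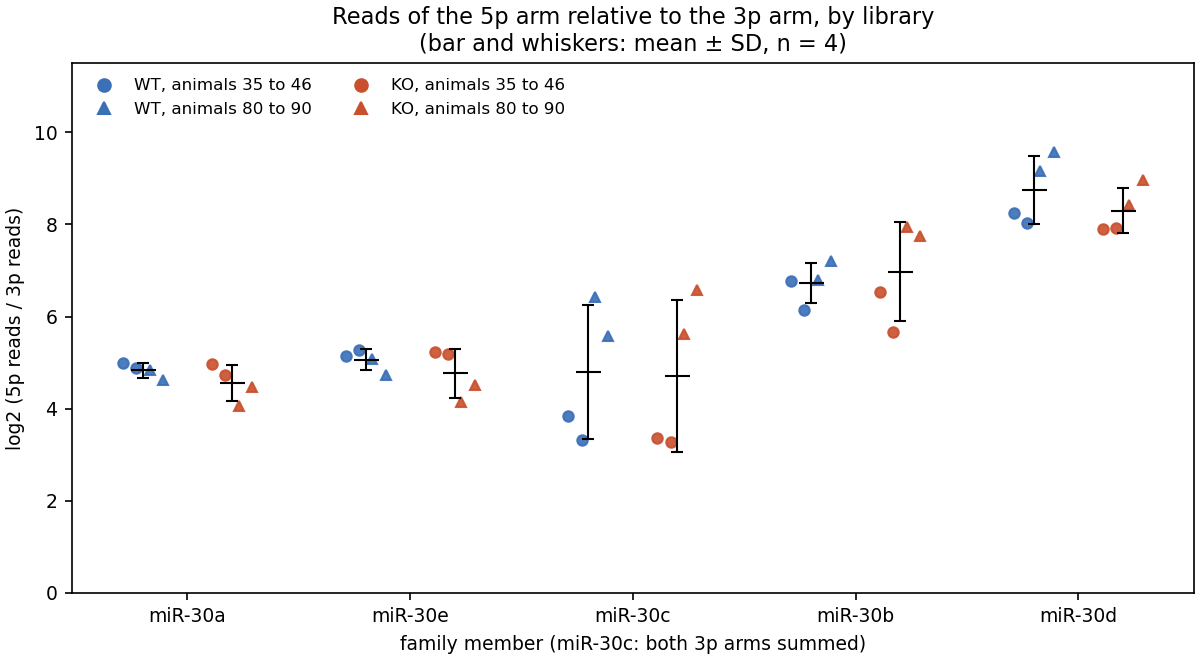
log2 of 5p reads over 3p reads for each member and library, with both 3p arms of miR-30c summed; symbols as in the plots of levels, bars and whiskers the mean and SD over 4 libraries. The miR-30c ratio lies at 3.27 to 3.85 in animals 35 to 46 and at 5.59 to 6.58 in animals 80 to 90, while miR-30a stays between 4.07 and 4.98.

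Markers of other cells also differed between the number ranges. Erythroid miRNAs (5 of 5 tested) summed to 5060.4 to 7387 CPM in animals 35 to 46 and 644 to 2516 CPM in animals 80 to 90. Stellate or mesenchymal miRNAs (9 of 9) summed to 6341 to 8879.8 against 3727 to 4259.5 CPM, with 1 entry called higher and 3 lower. This sum was led by miR-143-3p (2516 to 7490 CPM, log2 difference -1.05), and the median over its 9 entries was -0.46. The sum of lymphocyte miRNAs (5 of 7) was higher in the later numbers, 1808 to 2193 against 2553 to 3850.4 CPM. It was led by miR-181a-5p (1466 to 3258 CPM), whose log2 difference of 0.54 did not pass (edgeR adjusted p 0.0712). The lower miR-150-5p (46.5 to 518 CPM) did pass (1.55, edgeR adjusted p 0.0187). The sum of epithelial miRNAs (5 of 6) was also higher in the later numbers, 235 to 359.9 against 405 to 727 CPM. The epithelial sum was led by miR-200c-3p (log2 difference 1.28), while the median over its 5 entries was -0.06. Of these 5, 1 was called higher and 0 lower. Macrophage, hepatocyte and endothelial sums overlapped between the ranges. Single markers among them still passed the test: miR-122-5p was lower in animals 80 to 90 (log2 difference -2.44, edgeR adjusted p 0.0243) and the myeloid miR-142a-5p was higher (0.79, edgeR adjusted p 0.00945). Calls went both ways within the hepatocyte and macrophage lists. Of 10 hepatocyte entries 1 was called higher and 1 lower, and of 8 macrophage or myeloid entries 3 higher and 2 lower. Of 2 endothelial entries 0 were called. Of 5 erythroid entries 0 were called higher and 2 lower, and of 5 lymphocyte entries 2 higher and 0 lower. Over all 627 entries 16.6% were called higher and 15.8% lower. No marker list had its leading member at 0. The part of these cell types in the miR-30 values was not tested.

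Other miRNAs reported to act in liver fibrosis or in lipid metabolism, lists chosen with earlier results of these data known and sharing members with the marker lists, gave context. Of 21 tested fibrosis entries 7 were higher and 14 lower in KO, with 0 called and a median of -0.07. Between the ranges 2 were called higher and 7 lower, beside 16.6% and 15.8% of all entries. The profibrotic miR-21a-5p led this list with a log2 difference of 0.06 in KO and -0.86 (edgeR adjusted p 0.0296) between the ranges. The antifibrotic miR-29a-3p followed with -0.02 in KO and -0.20 (0.477) between the ranges. Of 23 tested lipid entries 9 were higher and 14 lower in KO, with 0 called and a median of -0.04, and between the ranges 3 were called higher and 7 lower, beside the same 16.6% and 15.8%. Its leading members were miR-122-5p, with a log2 difference of -1.30 in KO and the fall between ranges given above, and miR-26a-5p, with -0.04 in KO and 1.15 (edgeR adjusted p 0.00503) between the ranges.

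The summed 5p arms ran from 80892.5 CPM in KO 88 to 140115 CPM in WT 80, and the number ranges overlapped. The entries whose pattern was most like this sum were sought among 165 other mouse entries with a mean of at least 100 CPM, by the SD of their log2 ratio to it over the 8 libraries. They were miR-140-3p (0.17), miR-25-3p (0.17), miR-93-5p (0.19), let-7i-5p (0.20) and miR-148b-3p (0.20), beside a median of 0.55 over all 165. Within the family, each 5p arm was set against the sum of the other 5p arms and each 3p arm against the whole 5p sum. The SD of this log2 ratio was lowest for miR-30e-3p (0.22) and miR-30d-5p (0.23) and highest for miR-30c-5p (0.84). The reference thus differs between arms.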

How the data were processed

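Small RNA was sequenced from sorted Kupffer cells of 4 WT and 4 KO mice, each library made from 1 µg of total RNA with an Illumina TruSeq small RNA kit, per the labels' protocols. No source used here names the trimming, aligner, miRNA database or genome build. The authors deposited expected counts, headed raw per the file headers, made before any normalization by a read assignment that is not described. Of these, 12.0% of values were not whole (tolerance 1e-06), as were 27 of 40 values of the family's 5p arms and 12 of 48 of its 3p arms. How reads that match several entries were divided is not stated, so values of near-identical arms are uncertain. The deposited normalized columns hold a signal equal to the raw value times 1 factor per library.

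Counts were rounded and filtered with filterByExpr (627 of 1234 entries kept). They were scaled with TMM and tested with edgeR 4.0.16 (R 4.3.3) by the quasi-likelihood test with Benjamini-Hochberg adjustment over all 627 entries at 0.05. Genotype was the only term of the genotype comparison, and the number range comparison had genotype as a second term. SEs derive from the F statistic. The common dispersion was 0.582 with genotype alone and 0.276 with the range. DESeq2 1.42.0 and limma 3.58.1 (on log2 of the deposited normalized signal plus 1) were alternatives, beside other filters, scalings, merged entries and left-out libraries. The scripts were tested on simulated data. Wilson intervals cover counting error only. Each mouse is numbered, so replicates are animals, but the labels do not state cages or litters.

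The members and lists were chosen, and the split by number range was known, with earlier results of these data in view. All entries named by the family rule were described, with values by library or as means with SD. Entries like the family were named by the smallest SD of the log2 ratio, and lists by counts and their 2 most abundant members.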

Additional observations from a re-analysis of the deposited data

Results flagged for a closer look

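The level of miR-30e-5p in WT 82 was 5949.9 CPM against 12299.8 to 13133 CPM in the other WT libraries, a gap that takes up most of the group's range. Such gaps were looked for in 22 groups of 4 libraries (11 arms in 2 genotypes), where chance gives about 1.1, so this 1 is near that number.

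The share of miR-30d-5p among the family's 5p reads moved in opposite directions with genotype in the number ranges. In animals 35 to 46 it was higher in KO by a mean of 5.28 percentage points (49.1% and 56.0% in KO 40 and 46, 49.0% and 45.5% in WT 35 and 37). In animals 80 to 90 the difference, KO minus WT, was -7.05 points (46.5% and 47.8% in KO 88 and 90, 53.7% and 54.7% in WT 80 and 82). This difference between the ranges was not tested. What was looked for was both KO libraries above both WT libraries in 1 range and below both in the other. Of 31 family quantities examined this share alone met it, and so did the levels of 4.47% of all 627 entries. Other quantities, such as the level of miR-30d-5p and the share of miR-30b-5p, had mean differences of opposite sign, with libraries that overlapped in at least 1 range.

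A pair of entries outside the family list carried the family's 5p seed and did not pass the filter on low counts. One is named miR-30f, a precursor annotated on the strand opposite Mir30e, and its mean deposited normalized value was 11.8 in KO and 1.73 in WT. It had 7, 12, 10 and 12 counts in KO 40, 46, 88 and 90 and 5, 0, 0 and 0 in WT 35, 37, 80 and 82. Its listed form starts 1 base before the RefSeq form and has G for A at base 17. The RefSeq form itself does not carry the family's seed at bases 2 to 8. All 22 bases of the listed miR-30f sequence occur in the same order in miR-30a-5p, miR-30d-5p and miR-30e-5p. The counts of miR-30f therefore cannot be told apart from reads of those arms that lack bases. The genotypes did not overlap in normalized value (7.16 to 19.9 in KO, at most 6.93 in WT), as for 0.972% of all 1234 entries. The other, a predicted entry named PC-5p-196215, had a mean normalized value of 9.70 in KO, from 22 and 9 counts in KO 40 and 46 and 0 in the other 6 libraries. Its 20 bases occur in order in miR-30e-5p.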

How the results depend on the processing

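Between genotypes, 0 members and 0 entries were called under all alternatives run. Across number ranges miR-30c-5p stayed called in all 9 alternatives and all 8 fits without 1 library, miR-30c-2-3p in 9 and 7, and miR-30d-3p in 5 and 1. Of the alternatives, merging identical sequences, summing suffixes and changing the filter left the members' own counts as they were. How reads were divided between near-identical arms was not varied. With 1 library left out the number of entries called between ranges was 129 to 222 and of members 1 to 4, both lowest without WT 37. The left-out fits turned the sign of the KO minus WT log2 difference for miR-30a-5p (-0.31 to 0.079), miR-30b-3p (-0.33 to 0.16), miR-30b-5p (-0.059 to 0.29), miR-30c-2-3p (-0.50 to 0.22), miR-30c-5p (-0.58 to 0.44), miR-30d-5p (-0.23 to 0.083), miR-30e-3p (-0.042 to 0.17) and miR-30e-5p (-0.39 to 0.032). Between ranges they turned miR-30d-5p (-0.055 to 0.30) and miR-30e-3p (-0.18 to 0.11). The range difference of miR-30e-3p also turned with no filter (0.054), DESeq2 size factors (0.037), library totals (0.078), DESeq2 (0.031) and limma on the deposited values (0.0027). In animals 35 to 46 alone the genotype difference turned for miR-30b-3p (0.38), miR-30d-5p (0.26) and miR-30e-3p (-0.020). The genotype difference in the share of miR-30d-5p was 5.28 points in animals 35 to 46 and -7.05 in animals 80 to 90, an alternative chosen after seeing the data. The causes were not tested. No paired analysis was possible because the labels do not say which WT and KO mice were littermates. With the number range as a term instead, 0 entries were called between genotypes, and 17 had an unadjusted p under 0.05 in edgeR against 2 without it. The genotype interval of miR-30c-5p was then -0.74 to 0.46, against -1.39 to 1.18. The low miR-30c-1-3p rests on 94 to 208 counts per library.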
